A study of Mus musculus with 8 samples.

Results

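Embryonic stem cells that had lost Drosha were compared with embryonic stem cells that had lost Dgcr8, the other core subunit of the Microprocessor. The comparison used the 2 Drosha knockout (KO) and the 2 Dgcr8 KO libraries of the deposited count table, picked by their column names and labels. These are 4 of the 8 libraries of the series, and the wild-type and Ago1_2 KO libraries did not enter it. All 4 came from the mouse line E14 on a 129/Ola background, a line taken from the blastocyst. They had spent 2 weeks or more in 2i medium, which holds N2B27, LIF, the GSK3 inhibitor CHIR99021 and the MEK inhibitor PD0325901. The labels do not say how either gene was disrupted, how many clones were used or whether the libraries of a genotype were separate cultures. P-values therefore measure only the spread between these libraries, which may be technical.

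DROSHA is the nuclear RNase III enzyme that cuts the hairpin out of a primary miRNA transcript, and DGCR8 is the RNA-binding partner that anchors it on the hairpin. Both are needed for canonical miRNAs, which in embryonic stem cells are led by the miR-290 cluster. The Microprocessor also cuts hairpins in the Dgcr8 mRNA. The comparison asks where the polyadenylated RNA of cells without the one subunit differs from that of cells without the other.

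Reads counted on genes came to 18361044 and 15575868 in Dgcr8 KO 1 and 2, and to 17589425 and 26333907 in Drosha KO 1 and 2. Of the 15467 genes with enough counts to test, 1615 (10.4%) were higher in Drosha KO and 918 (5.94%) were lower at an adjusted p under 0.05, the rule for a call throughout. These calls are from edgeR's quasi-likelihood test with Benjamini-Hochberg adjustment over all genes tested. Levels are given as CPM, read counts scaled to a common library size, and differences as log2 of Drosha KO over Dgcr8 KO with a standard error (SE). The Drosha KO libraries stood further apart than the Dgcr8 KO libraries, with 1887 against 382 genes differing by over 2-fold within the genotype. Leaving out a library changed the count of calls by much more than 1.5 times. It was 317 without Dgcr8 KO 1 and 302 without Dgcr8 KO 2, fits whose spread comes from the Drosha KO pair alone. It was 7808 without Drosha KO 1 and 6751 without Drosha KO 2. Calls higher and lower made up 1.3% and 0.663% of genes without Dgcr8 KO 1, and 1.2% and 0.656% without Dgcr8 KO 2. They made up 25.7% and 22.5% without Drosha KO 1, and 22.7% and 19.5% without Drosha KO 2. With all 4 libraries DESeq2 called 12.4% higher and 7.69% lower, and limma-voom 8.81% and 5.77%, and in all edgeR called 16.4% of genes.

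The 7 embryonic stem cell markers summed to 5240 and 4940 CPM in Dgcr8 KO and to 5430 and 5540 CPM in Drosha KO. The 9 markers of fibroblast feeders summed to 7.82 and 7.91 CPM against 11.8 and 17.8 CPM, with Postn at 0 in all 4 libraries. Primitive endoderm markers summed to 1.9 and 2.17 CPM against 5.63 and 9.45 CPM, and neural markers to 16.2 and 18.1 CPM against 58.0 and 38.7 CPM. Of the 5 primitive endoderm markers only 1 was tested. In a wider endoderm list 2 of 9 tested genes were higher and 3 lower, with a median of -0.16, against 10.4% and 5.94% of all genes. Mesoderm markers were lower in Drosha KO, at 59.7 and 77.0 CPM against 4.71 and 5.02 CPM, with Mesp1 at 0. Only 2 of these 5 were tested, and most of the sum in Dgcr8 KO was T, also a Wnt target (below). In a wider mesoderm list 2 of 5 tested genes were lower and 0 higher. With no count filter 5 of 17 were higher and 2 lower, against 2853 and 1747 of all 25357 genes. The part of such cells in the results below was not tested. In bulk RNA fewer cells of a type and less RNA per cell cannot be told apart.

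Differences moved with the base composition of the transcripts. Across 15404 genes the log2 difference had a Spearman correlation of 0.439 with transcript GC content and of 0.0027 with log2 transcript length, a description of genes that share the same 4 libraries. When genes were split into 5 equal groups by GC content, the median was -0.356 in the lowest group and 0.524 in the highest. A fit with an offset for GC content in each library brought the correlation to 0.03, and 1062 genes (6.89%) were then higher and 601 (3.90%) lower. Counts of list members with this offset are given below beside those without it. The part of base composition in the differences was not tested.

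**Figure D1:**
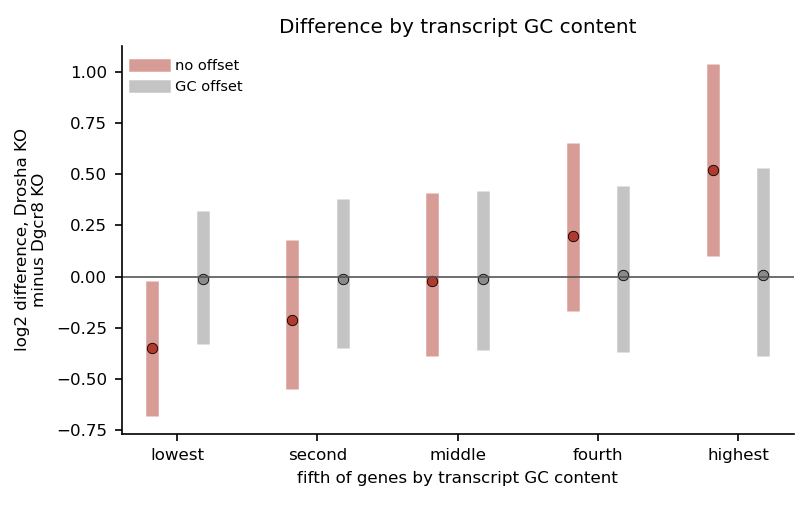
Log2 difference, Drosha KO minus Dgcr8 KO (vertical axis), over 5 equal groups of genes by transcript GC content (horizontal axis), with points for medians and bars for the middle 50% of genes. Without an offset (red) the medians climb from -0.356 to 0.524; with the GC offset (grey) they lie near 0.

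Drosha mRNA was lower in the cells labelled Drosha KO and Dgcr8 mRNA was present in both. Drosha (ENSMUSG00000022191.15, GRCm38 chr15:12824815-12935291, plus strand) stood at 254 and 283 CPM in Dgcr8 KO and at 51.8 and 83.3 CPM in Drosha KO. The groups were far apart, and the log2 difference was -1.99 ± 0.25 (SE; adjusted p = 0.0101), called in every fit with 1 library left out. Dgcr8 (ENSMUSG00000022718.11, chr16:18253948-18289246, minus strand) stood at 392 and 372 CPM in Dgcr8 KO and at 308 and 237 CPM in Drosha KO. Its log2 difference of -0.49 ± 0.18 (adjusted p = 0.11) did not pass the test.

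A feature inside Dgcr8 separated the genotypes fully. Mir1306 (ENSMUSG00000080452.3, chr16:18284239-18284317, minus strand) is a hairpin that lies within a coding exon of Dgcr8, so reads over it come from that stretch of the Dgcr8 transcript. It held 0 and 0 counts in Dgcr8 KO and 170 and 246 counts in Drosha KO, at least 112-fold more when the Dgcr8 KO group is set to a floor of 3 counts. The Dgcr8 KO libraries had reads on the gene as a whole and none over this stretch. It is printed here because it marks the stretch without reads, 5′ to 3′ on the transcribed strand (RefSeq, GRCm38.p6), with the 2 mature arms in capitals.
Mir1306 hairpin: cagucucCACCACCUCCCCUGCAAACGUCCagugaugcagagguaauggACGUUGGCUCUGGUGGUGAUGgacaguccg

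Reads over some other miRNA hairpins were higher without Drosha than without Dgcr8. Mature miRNAs have no poly(A) tail, so reads over these intervals come from primary transcripts or from host transcripts that contain the hairpin. Of 149 annotated miRNA genes tested, 21 were higher in Drosha KO, 0 were lower by the same edgeR test and 128 were not called, against 10.4% higher and 5.94% lower among all genes; the share that was higher is not far from this background. At an unadjusted p under 0.05, 31 were higher and 8 lower, and DESeq2 and limma-voom called 0 lower. Their median log2 difference was 0.28, against 0.00 over all genes tested. Mir1306, with its stretch without reads in Dgcr8 KO, is annotated as a miRNA gene too, so these counts are not of other hairpins alone. With the GC offset 13 were higher and 1 lower. Without a Dgcr8 KO library 1 was called, and without Drosha KO 1 or 2 there were 35 and 42 higher and 7 and 22 lower.

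Mature sequences of miRNA genes described below are shown 5′ to 3′ from RefSeq (GRCm38.p6), with the seed, bases 2 to 8, in capitals. The seed is the part that pairs with target mRNAs. The first set is the 3p arms of the miR-290 cluster, of which miR-291a-3p, miR-294-3p and miR-295-3p share 1 seed and miR-290a-3p and miR-291b-3p differ from it in its last base.
miR-290a-3p: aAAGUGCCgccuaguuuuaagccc
miR-291a-3p: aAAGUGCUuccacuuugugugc
miR-291b-3p: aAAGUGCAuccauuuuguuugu
miR-293-3p: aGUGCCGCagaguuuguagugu
miR-294-3p: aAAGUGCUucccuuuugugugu
miR-295-3p: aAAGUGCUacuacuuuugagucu
The second set holds the genes outside that cluster, in which miR-29a-3p and miR-29b-3p share a seed.
miR-27b-3p: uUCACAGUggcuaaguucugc
miR-24-3p: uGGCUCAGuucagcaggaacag
miR-29a-3p: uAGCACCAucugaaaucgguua
miR-29b-3p: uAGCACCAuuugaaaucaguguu
miR-101a-3p: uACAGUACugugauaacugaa
let-7a-5p: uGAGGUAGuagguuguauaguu

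The miR-290 cluster (chr7, plus strand) encodes the main miRNAs of naive stem cells, which speed the passage from G1 to S phase. Of its 9 genes in the table, Mir290b and Mir292b had no reads and 7 were tested. Of these 3 were higher in Drosha KO and 4 were not called, with a median of 0.84. Mir291a stood at 9.03 and 9.95 CPM in Dgcr8 KO and at 25.1 and 19.8 CPM in Drosha KO (1.24 ± 0.23, adjusted p = 0.0214). Mir290a, the first hairpin of the cluster, stood at 5.54 and 5.93 CPM against 18.3 and 12.3 CPM (1.41 ± 0.29, adjusted p = 0.0283). Both pairs were clear of each other. Mir292 was just inside the threshold (0.84 ± 0.22, adjusted p = 0.0496). Mir291b (0.92 ± 0.25, adjusted p = 0.0538) and Mir293 (0.52 ± 0.22, adjusted p = 0.146) missed it. The 2 hairpins at the 3′ end did so by more, Mir294 at 0.37 ± 0.27 and Mir295 at 0.32 ± 0.30. With the GC offset 2 were called. Without either Dgcr8 KO library edgeR called 0, with 3 at an unadjusted p under 0.05. The antisense gene Nlrp12 overlaps 6 of the 7 hairpins tested, and the sources used here do not state whether counting was by strand. The 14 genes tested of the miR-17-92 and miR-106a-363 clusters had a median of 0.53; edgeR, DESeq2 and limma-voom called 0 of them, 3 had an unadjusted p under 0.05 with edgeR, and 8 lay higher in both Drosha KO libraries, as did 32.9% of all genes.

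The miR-23b cluster (chr13, plus strand), which lies inside a protein-coding gene, had 3 genes higher in Drosha KO, and 2 with the GC offset. They are the members with enough counts to test in a list of 8 that includes the related miR-23a cluster. Mir24-1 stood at 5.12 and 4.66 CPM against 13.9 and 10.1 CPM (1.29 ± 0.29, adjusted p = 0.0347). Mir23b stood at 1.95 and 1.21 CPM against 6.89 and 4.59 CPM (1.84 ± 0.43, adjusted p = 0.0374). Mir27b stood at 3.33 and 4.21 CPM against 8.78 and 8.78 CPM (1.22 ± 0.30, adjusted p = 0.0426). The libraries of the genotypes did not overlap for any of the 3, which held for 32.9% of all genes in that direction. Without a Dgcr8 KO library edgeR called 0 of them, with 2 at an unadjusted p under 0.05.

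Some called miRNA genes had few reads in Dgcr8 KO and passed the count filter through Drosha KO, so their large ratios are given as a description. Mir29a stood at 0.422 and 0.638 CPM against 7.86 and 3.10 CPM (3.36 ± 0.62, adjusted p = 0.0221). Its neighbour Mir29b-1 had 0 reads in both Dgcr8 KO libraries and 2.07 and 1.18 CPM in Drosha KO. Mirlet7a-1, which encodes a let-7 family member, stood at 0.370 and 0.128 CPM against 2.41 and 2.27 CPM (3.16 ± 0.57, adjusted p = 0.0211). Mir101a stood at 0.317 and 0.638 CPM against 3.10 and 5.10 CPM (3.11 ± 0.54, adjusted p = 0.0192). In each of these genes both Drosha KO libraries were above both Dgcr8 KO libraries. Drosha, at -1.99, was the only gene called among 18 that encode the Microprocessor and its cofactors, where 9 lay lower and 3 higher in both Drosha KO libraries (32.4% and 32.9% of all genes did). Of 13 genes for miRNA export, dicing and Argonaute proteins, 3 were higher and 1 lower, against 10.4% and 5.94% of all genes. The GC offset left 1 higher and 0 lower. Without either Dgcr8 KO library edgeR called 0; at an unadjusted p under 0.05 there were 3 higher and 1 lower without Dgcr8 KO 1, and 2 and 2 without Dgcr8 KO 2. Ago2, the slicing Argonaute, stood at 522 and 398 CPM against 1080 and 818 CPM (1.05 ± 0.22, adjusted p = 0.0295). Ago2 and Tarbp2, another of the 3, lie on distal chromosome 15, a segment with a raised median (below), and outside the segments 1 of 10 genes was higher. Xpo1, a nuclear exportin, stood at 659 and 573 CPM against 409 and 295 CPM (-0.81 ± 0.21, adjusted p = 0.0467), and was not called with the GC offset (-0.46, adjusted p = 0.12).

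**Figure D2:**
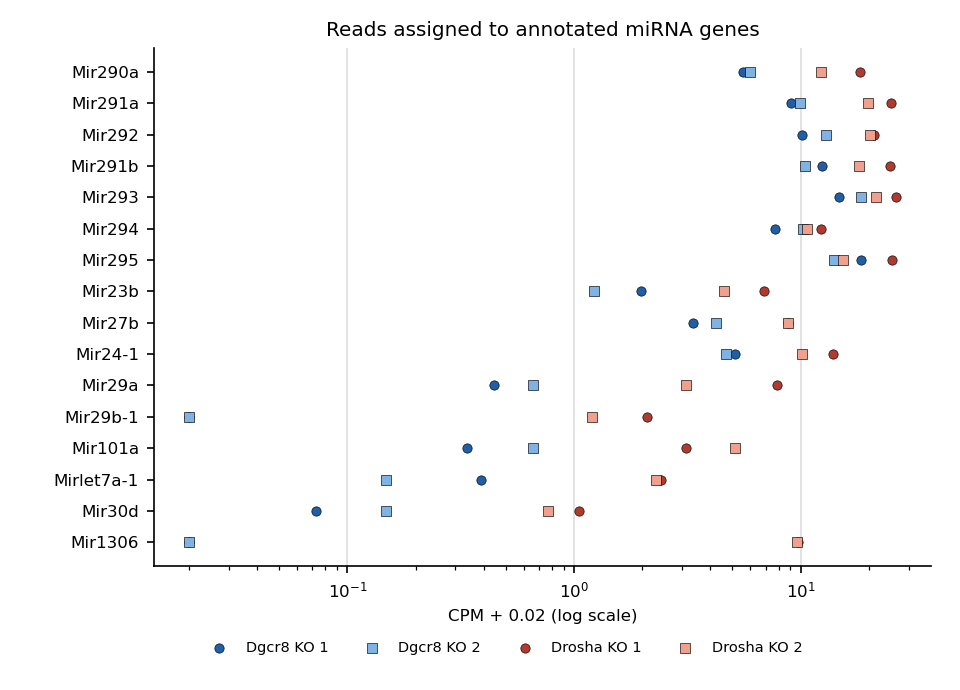
CPM plus 0.02 on a log axis for reads over annotated miRNA genes, 1 point per library (blue, Dgcr8 KO; red, Drosha KO; circles, replicate 1; squares, replicate 2). Points at the left edge are libraries with 0 reads; the red points lie to the right of the blue ones except for Mir295, where they overlap, and Mir294, where they lie close together.

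The largest differences of all were genes present in the one genotype and nearly or wholly missing in the other. Y-linked genes led the genes higher in Drosha KO. Ddx3y, an RNA helicase gene, held 0 and 0 counts in Dgcr8 KO and 2037 and 2147 in Drosha KO, at least 1120-fold more. Eif2s3y, a translation factor gene, held 0 and 0 against 1576 and 1555 counts, at least 841-fold more. Uty held 0 and 0 against 785 and 810 counts and Zfy1 0 and 0 against 618 and 279. Uba1y had 1 read in Dgcr8 KO against 2796 and 1080 counts, a ratio of 3130 with an exact 95% interval from 561 to 123000 that covers counting error only. Of 29 Y-linked genes with a read in any of the 4 libraries, 22 had none in Dgcr8 KO and 1 had none in Drosha KO. The other 7 had reads in Dgcr8 KO, most of them in Gm47283 (1085 and 997 counts against 1763 and 3753), Gm21742 (564 and 494 against 638 and 1266) and Mid1-ps1 (128 and 74 against 116 and 177), which were named after their values were seen. Gm47283 was higher in Drosha KO and the other two were not called. E14 is a male line.

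Outside the Y chromosome, Uba7, the activating enzyme for the ubiquitin-like ISG15, stood at 0.211 and 0.255 CPM in Dgcr8 KO and at 28.2 and 44.6 CPM in Drosha KO (7.26 ± 0.41, adjusted p = 0.00416). Phlda2, an imprinted growth restrictor of the placenta, had 1 read in Dgcr8 KO and stood at 5.86 and 11 CPM in Drosha KO. Msln, which encodes mesothelin, stood at 0.528 and 0.510 CPM against 35.3 and 22.7 CPM (5.78 ± 0.37, adjusted p = 0.00424). In these 3 genes both Drosha KO libraries were far above both Dgcr8 KO libraries. Others differed more within Drosha KO: Myrf, a membrane-bound transcription factor, stood at 0.106 and 0.383 CPM against 36.0 and 7.06 CPM, and Cdh13, a cadherin, at 0.264 and 0.128 CPM against 11.7 and 2.82 CPM. Grin2c, a glutamate receptor subunit, stood at 0.317 and 0.319 CPM against 3.67 and 16.4 CPM.

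Genes nearly lost from Drosha KO were led by the acetyltransferase gene Nat8f7, with 116 and 99 counts in Dgcr8 KO and 0 and 0 in Drosha KO, at least 88.9-fold fewer. Its neighbour Nat8f3 held 149 and 158 counts against 0 and 1, and 4 of the 6 Nat8 family genes tested were lower, also with the GC offset. Reads of these near-identical genes can be shared between them, so the split among them is uncertain. Lin28a, an RNA-binding protein that blocks let-7 maturation, stood at 64.5 and 66.3 CPM against 0.976 and 0.196 CPM (-6.92 ± 0.53, adjusted p = 0.00508). Htr5a, a serotonin receptor, stood at 49.3 and 69.6 CPM against 0.287 and 0.706 CPM (-6.81 ± 0.41, adjusted p = 0.00424). Plagl1, an imprinted zinc finger transcription factor, stood at 321 and 232 CPM against 3.90 and 4.86 CPM (-5.97 ± 0.26, adjusted p = 0.00381). All of these were far lower in both Drosha KO libraries. Akap6, Ptprtos and Trp53cor1 stood between 4.66 and 7.29 CPM in Dgcr8 KO and between 0.0392 and 0.353 CPM in Drosha KO. Btla and Tarm1, immune receptor genes, stood between 9.40 and 26.6 CPM against 0.115 to 1.89 CPM. Of the 24 genes with the largest differences, which include Sp5 and T described next, Uba1y, Myrf, Cdh13, Grin2c and Btla lost the call without a Dgcr8 KO library.

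**Figure D3:**
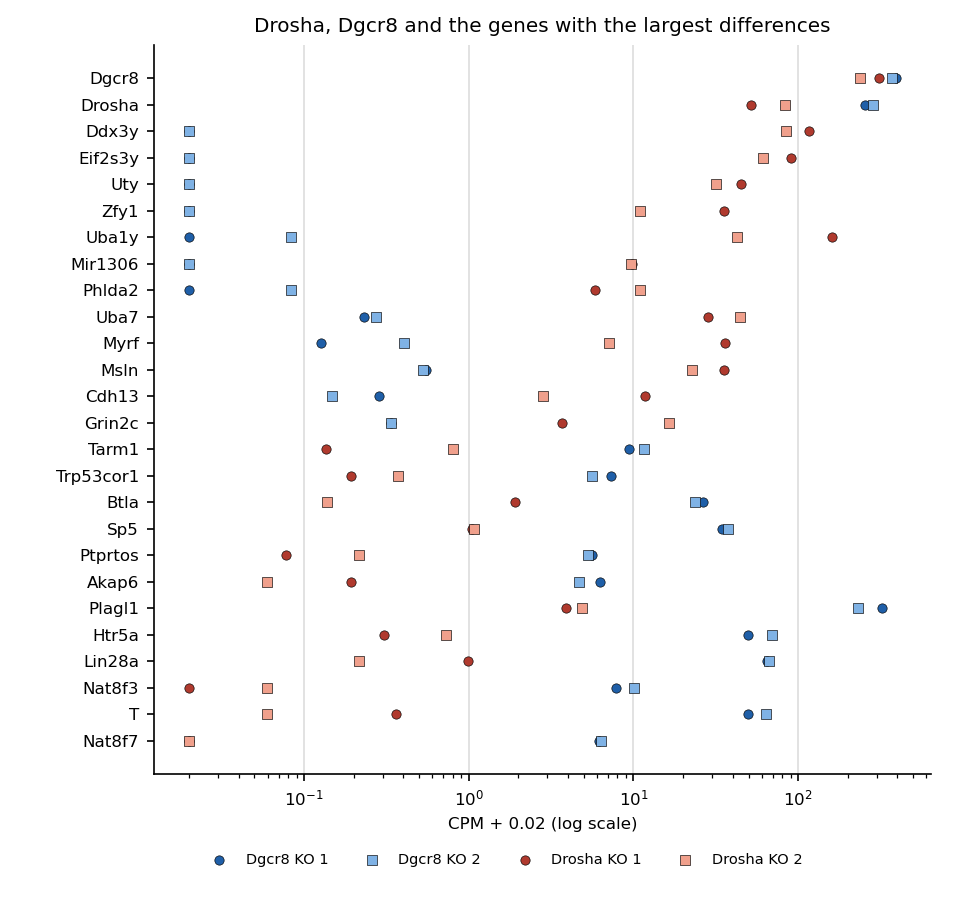
CPM plus 0.02 on a log axis for Dgcr8, Drosha and the 12 genes with the largest called difference in each direction, 1 point per library (blue, Dgcr8 KO; red, Drosha KO). Points at the left edge are libraries with 0 reads; from Ddx3y to Grin2c the red points are at the right, and from Tarm1 to Nat8f7 the blue ones.

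Targets of canonical Wnt signalling were lower in Drosha KO in 10 of 20 genes tested, against 5.94% of all genes. All 4 libraries were grown with the same GSK3 inhibitor, which switches this pathway on. Of the rest 1 was higher and 9 were not called, with a median of -1.22. With the GC offset 10 were lower, against 3.9% of all genes. With 1 library left out the median of the list lay between -1.45 and -1.19. Fewer members were called lower without either Dgcr8 KO library, and without either Drosha KO library more members were also called higher. Sp5, a direct target that represses other targets, stood at 34.5 and 37.6 CPM in Dgcr8 KO and at 1.03 and 1.06 CPM in Drosha KO (-5.10 ± 0.24, adjusted p = 0.00381). T, which encodes Brachyury, stood at 49.5 and 63.6 CPM against 0.344 and 0.0392 CPM (-8.35 ± 0.54, adjusted p = 0.00424). Axin2, a negative feedback gene of the pathway, stood at 116 and 126 CPM against 21.5 and 23.7 CPM (-2.42 ± 0.16, adjusted p = 0.00424). Cdx2 fell from 2.64 and 2.62 CPM to 0.115 CPM in Drosha KO 1 and no reads in Drosha KO 2. These 4 were called in every fit with 1 library left out. Lef1 and Tcf7, which encode the transcription factors of the pathway, were lower as well, Lef1 at 26.9 and 35 CPM against 5.45 and 1.18 CPM. Fzd7, a receptor, was the 1 gene higher, at 37.8 and 34.6 CPM against 128 and 72.1 CPM, and was not called with the GC offset (adjusted p = 0.0582).

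Paternally expressed imprinted genes were lower in Drosha KO in 8 of 19 tested and higher in 0 by edgeR, also at an unadjusted p under 0.05 and by DESeq2 and limma-voom. The median was -1.13, and the GC offset gave the same counts. Among all genes 5.94% were lower, and 3.9% with the GC offset. In 15 of the 19 both Drosha KO libraries were below both Dgcr8 KO libraries, against 32.4% of all genes. Besides Plagl1, Kcnq1ot1, the antisense RNA of the Kcnq1 domain, stood at 34.5 and 30.2 CPM against 7.58 and 6.55 CPM (-2.20 ± 0.21, adjusted p = 0.00667). Peg10, a retrotransposon-derived gene of the placenta, stood at 156 and 164 CPM against 59.6 and 41.5 CPM (-1.66 ± 0.21, adjusted p = 0.0101). Snrpn, of the Prader-Willi region, stood at 59.7 and 57.2 CPM against 28.4 and 24.4 CPM (-1.15 ± 0.17, adjusted p = 0.0141). Of 17 maternally expressed genes, 3 were higher and 0 lower by edgeR, against 10.4% and 5.94% of all genes. At an unadjusted p under 0.05 1 was lower, and by DESeq2 and limma-voom 0 were. The 3 higher genes were Phlda2, the cell cycle inhibitor Cdkn1c (0.158 and 0.191 CPM against 2.41 and 1.80 CPM) and Slc22a18. All belong to the Kcnq1 domain that Kcnq1ot1 silences on the paternal allele. The counts do not tell the alleles apart, and a link between these genes and the lower Kcnq1ot1 was not tested. Slc22a18 was not called with the GC offset, which left 2 of 17, against 6.89% of all genes. Phlda2 and Cdkn1c had few reads in Dgcr8 KO and passed the count filter through Drosha KO. Without a Dgcr8 KO library 3 of the paternal and 1 of the maternal genes were called.

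Genes of interferon signalling and cytosolic RNA sensing were higher in Drosha KO. Of 30 tested, 13 were higher, against 10.4% of all genes, and 17 were not called, with a median of 1.14. With the GC offset 12 were higher, against 6.89% of all genes. By edgeR 0 of the 30 were lower, also at an unadjusted p under 0.05 and by DESeq2 and limma-voom. Oas1a, which makes the second messenger that switches on RNase L, stood at 11.4 and 12.5 CPM in Dgcr8 KO and at 60.6 and 37.4 CPM in Drosha KO (2.04 ± 0.27, adjusted p = 0.0113). Bst2, or tetherin, which holds budding viruses at the cell surface, stood at 4.07 and 4.53 CPM against 24.5 and 16.3 CPM (2.24 ± 0.29, adjusted p = 0.011). Xaf1, a pro-apoptotic interferon-stimulated gene, stood at 63.7 and 66.9 CPM against 156 and 141 CPM (1.18 ± 0.15, adjusted p = 0.00999). Oasl2 stood at 0.106 and 0.0638 CPM against 2.47 and 2.00 CPM. Oasl2 and Ifih1 (below) had few reads in Dgcr8 KO and passed the count filter through Drosha KO. Mavs, the mitochondrial adaptor of RNA sensing, stood at 57.1 and 65.7 CPM against 120 and 127 CPM (1.01 ± 0.15, adjusted p = 0.0144). Several members were much higher in Drosha KO 1 than in Drosha KO 2: the RNA sensor gene Ifih1 stood at 0.211 and 0.191 CPM against 4.76 and 1.53 CPM, and Zbp1 at 1.06 and 0.957 CPM against 25.5 and 6.51 CPM. Eif2ak2, the kinase PKR, stood at 29.9 and 26.9 CPM against 68.7 and 52.5 CPM (1.09 ± 0.20, adjusted p = 0.0212) and lies on distal chromosome 17, another segment with a raised median. Without Dgcr8 KO 1 or 2, 1 and 3 members were called, Oas1a among them, and without Drosha KO 1 or 2, 19 and 21 were higher and 3 and 0 lower.

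The promoters of some of these genes held a common motif. The interferon-stimulated response element was sought as GAAANNGAAA on both strands, overlaps allowed, from 250 bases before to 50 after the RefSeq start site. It was found in 10 of the 22 tested members with a promoter window (45.5%). Of all genes tested with such a window, 3.37% of 10562 had the motif, as did 3.44% of all 32851 promoter windows. Among the 10 of these members called higher, 5 had the motif, a share close to that of all 22. The 10 are part of the 22 and too few to compare with the rest. Members had been listed as interferon or RNA sensing genes beforehand, so their share is a description. The part of the motif in the differences was not tested. Among genes called higher in Drosha KO 4.33% of 1156 had it, and among those called lower 3.63% of 688. A match is a description of the letters and not a bound site. Promoters of 4 genes called higher are shown 5′ to 3′ in the direction of transcription (RefSeq, GRCm38.p6), with the matches in capitals, to show where the element stands.
Eif2ak2, chr17:78882523-78882822, minus strand: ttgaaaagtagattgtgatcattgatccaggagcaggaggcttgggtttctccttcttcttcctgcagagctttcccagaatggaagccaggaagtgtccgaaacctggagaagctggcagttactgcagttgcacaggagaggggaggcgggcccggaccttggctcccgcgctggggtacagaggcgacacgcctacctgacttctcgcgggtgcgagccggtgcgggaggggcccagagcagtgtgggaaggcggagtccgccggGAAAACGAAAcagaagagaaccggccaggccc
Ifih1, chr2:62646206-62646505, minus strand: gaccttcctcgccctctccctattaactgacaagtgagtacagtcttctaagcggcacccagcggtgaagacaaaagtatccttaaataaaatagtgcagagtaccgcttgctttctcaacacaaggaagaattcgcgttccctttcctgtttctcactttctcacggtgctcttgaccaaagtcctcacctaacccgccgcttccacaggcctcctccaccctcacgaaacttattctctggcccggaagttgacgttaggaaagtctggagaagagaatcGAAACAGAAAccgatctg
Oas1a, chr5:120907476-120907775, minus strand: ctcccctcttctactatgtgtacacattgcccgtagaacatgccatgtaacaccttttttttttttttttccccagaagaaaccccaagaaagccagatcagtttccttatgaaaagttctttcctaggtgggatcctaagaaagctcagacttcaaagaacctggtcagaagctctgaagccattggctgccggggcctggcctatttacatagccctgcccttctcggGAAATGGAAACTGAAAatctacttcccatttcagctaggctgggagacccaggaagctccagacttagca
Bst2, chr8:71537423-71537722, minus strand: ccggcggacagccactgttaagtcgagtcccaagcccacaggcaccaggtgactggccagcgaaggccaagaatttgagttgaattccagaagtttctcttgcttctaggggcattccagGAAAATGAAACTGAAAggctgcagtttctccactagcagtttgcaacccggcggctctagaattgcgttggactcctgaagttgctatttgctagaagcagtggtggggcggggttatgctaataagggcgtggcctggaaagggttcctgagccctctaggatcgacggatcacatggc

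Genes of class I antigen presentation were higher too, in 9 of 17 tested, against 10.4% of all genes, with a median of 1.74. By edgeR 0 were lower, also at an unadjusted p under 0.05 and by DESeq2 and limma-voom. With the GC offset 5 were higher, against 6.89% of all genes. In 15 of the 17 both Drosha KO libraries were above both Dgcr8 KO libraries, which held for 32.9% of all genes. H2-Bl, a class I heavy chain gene, stood at 3.33 and 3.76 CPM against 50.5 and 61.2 CPM (3.98 ± 0.22, adjusted p = 0.00416). H2-Q4 stood at 2.01 and 1.85 CPM against 29.5 and 22.3 CPM (3.74 ± 0.27, adjusted p = 0.00508). H2-K1, a classical heavy chain gene, stood at 2.27 and 1.66 CPM against 9.93 and 8.55 CPM (2.22 ± 0.34, adjusted p = 0.0145). Heavy chain genes are near copies, so reads may be split between them. Tapbp, the chaperone that loads peptides, has no such copy and stood at 16.1 and 17.7 CPM against 85.8 and 52.2 CPM (2.03 ± 0.27, adjusted p = 0.0113). Without a Dgcr8 KO library 3 members were called, and H2-Bl, H2-Q4 and Tapbp were called in every fit with 1 library left out. Of 18 genes that restrict retroelements, 3 were higher, against 10.4% of all genes, with a list median of 0.07. With the GC offset 2 were higher, against 6.89% of all genes. Mov10, an RNA helicase that blocks LINE-1 elements, stood at 108 and 104 CPM against 459 and 449 CPM (2.10 ± 0.15, adjusted p = 0.00471), and was called in every such fit.

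Genes of the two-cell-like state, a rare and transient state of stem cell cultures, were higher in Drosha KO. Of 32 with a read, 26 had enough counts to test. Members with few reads in Dgcr8 KO, such as Duxf3, passed this count filter only through Drosha KO. As a description, all 26 tested lay higher in both Drosha KO libraries, against 32.9% of all genes. The median was 1.92, and 13 passed the test, or 15 with the GC offset, against 10.4% and 6.89% of all genes called higher. Zscan4f stood at 7.82 and 8.74 CPM against 44.6 and 35.3 CPM (2.27 ± 0.21, adjusted p = 0.00666), and Zscan4c at 3.38 and 4.53 CPM against 34.6 and 21.1 CPM (2.82 ± 0.33, adjusted p = 0.00926). These encode zinc finger proteins that protect telomeres. Tmem92, another marker of the state, stood at 3.49 and 4.08 CPM against 10.6 and 12.7 CPM (1.63 ± 0.28, adjusted p = 0.0197). Duxf3, the transcription factor that drives the state, stood at only 0.158 and 0.128 CPM against 0.804 and 0.627 CPM (2.25 ± 0.58, adjusted p = 0.0486), and missed the threshold with the GC offset (adjusted p = 0.117). Zscan4 and Usp17l genes lie in arrays of near copies, and which member a read belongs to is uncertain. Without a Dgcr8 KO library 3 members were called, Zscan4f and Zscan4c among them; without Drosha KO 1 or 2, 19 and 24 were higher. Of 22 regulators of this program 5 were higher and 1 lower, against 10.4% and 5.94% of all genes, with a median of 0.01. With the GC offset 2 were higher and 0 lower, against 6.89% and 3.9% of all genes. Without either Dgcr8 KO library edgeR called 0; at an unadjusted p under 0.05 there were 5 higher and 1 lower without Dgcr8 KO 1, and 3 and 0 without Dgcr8 KO 2. Of the 5, L3mbtl2 and Smchd1 lie in the chromosome segments described below. The histone methyltransferase gene Ehmt2 had the lowest p, at 63.7 and 61.9 CPM against 164 and 135 CPM, with 0.62 (adjusted p = 0.0907) under the GC offset against 1.25 ± 0.16 without.

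Pluripotency factors changed in both directions. Of 23 naive factors 5 were higher and 3 lower, with a median of 0.01, and of 11 core factors 3 were higher and 2 lower, against 10.4% and 5.94% of all genes. The GC offset left 2 higher and 2 lower naive factors and 1 higher and 1 lower core factor. Without either Dgcr8 KO library 1 naive factor was called, lower, and 2 core factors, 1 each way. Gbx2, a homeobox gene of naive cells, stood at 15.3 and 22.1 CPM against 2.98 and 2.00 CPM (-2.91 ± 0.34, adjusted p = 0.00926). Utf1, a chromatin protein of undifferentiated cells, stood at 4.91 and 7.53 CPM against 58.3 and 43.5 CPM (3.04 ± 0.29, adjusted p = 0.00666). Fgf4, the growth factor that primes differentiation through ERK, stood at 154 and 146 CPM against 252 and 287 CPM (0.85 ± 0.15, adjusted p = 0.0208). Pou5f1 was called higher (0.61 ± 0.15, adjusted p = 0.0445), at 724 and 784 CPM against 1170 and 1130 CPM, but stood at 0.13 (adjusted p = 0.612) with the GC offset. Of 19 formative genes 6 were higher and 3 lower; with the GC offset 1 was higher and 3 lower, and without either Dgcr8 KO library only 2, both lower, were called. Nkx1-2, a homeobox gene of the epiblast, stood at 103 and 104 CPM against 10.3 and 5.41 CPM (-3.74 ± 0.32, adjusted p = 0.00577). Etv4, an effector of FGF signalling, stood at 33.2 and 31.3 CPM against 8.32 and 3.69 CPM (-2.44 ± 0.39, adjusted p = 0.0159). Gbx2, Utf1, Nkx1-2 and Etv4 were called in every fit with 1 library left out, and Fgf4 and Pou5f1 were not.

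Reported targets of the miR-290 family and of let-7 had calls in both directions. Of 21 reported miR-290 targets 4 were higher and 1 lower (median 0.41), and of 19 reported let-7 targets 1 was higher and 3 lower (median -0.19), against 16.4% of all genes called. The GC offset left 3 and 1 among the former and 1 and 2 among the latter. Without Dgcr8 KO 1 or 2, 1 and 0 of the former and 1 and 1 of the latter were called; at an unadjusted p under 0.05 without Dgcr8 KO 2 it was 3 higher and 1 lower of the former. Tgfbr2, a TGF-beta receptor, stood at 7.87 and 6.19 CPM against 22 and 31.2 CPM (1.92 ± 0.27, adjusted p = 0.0125). Lats2, a Hippo kinase, stood at 7.60 and 7.02 CPM against 35.5 and 16.1 CPM (1.81 ± 0.39, adjusted p = 0.0323; 0.0528 with the GC offset). Among the let-7 targets the lower genes were Lin28a, Ccnd1 (202 and 187 CPM against 110 and 79.0 CPM) and Nras.

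Some genes of the matrix, of adhesion and of the contractile cytoskeleton were higher in Drosha KO. Of 29 matrix and adhesion genes 12 were higher (median 0.75), against 10.4% of all genes. With the GC offset 10 were higher, against 6.89% of all genes. By edgeR 0 of the 29 were lower, with 1 at an unadjusted p under 0.05 and 0 by DESeq2. Itgb4, the integrin of hemidesmosomes, stood at 7.60 and 8.93 CPM against 41.3 and 52.9 CPM (2.51 ± 0.22, adjusted p = 0.00581). Itga5, the fibronectin receptor subunit, stood at 51.5 and 52.5 CPM against 205 and 177 CPM (1.87 ± 0.16, adjusted p = 0.00562). Sparc, a secreted matrix glycoprotein, stood at 77.5 and 89.0 CPM against 206 and 216 CPM (1.34 ± 0.15, adjusted p = 0.00911). Cdh3, or P-cadherin, stood at 1.69 and 1.72 CPM against 11 and 10.6 CPM. Of 18 cytoskeletal genes 6 were higher and 12 not called (median 0.69), and 4 were higher with the GC offset. The shares of all genes were again 10.4% and 6.89%. By edgeR 0 of the 18 were lower, also at an unadjusted p under 0.05 and by DESeq2. Myh9, the heavy chain of non-muscle myosin, stood at 39.9 and 45.5 CPM against 203 and 259 CPM (2.43 ± 0.19, adjusted p = 0.00517). Tpm2, a tropomyosin gene, stood at 1.11 and 1.40 CPM against 11.9 and 18.3 CPM (3.59 ± 0.37, adjusted p = 0.0073). Itga5 and 4 of the 6 cytoskeletal genes, namely Myh9, Krt8, Krt18 and Lgals1, lie on distal chromosome 15. Without the 4 chromosome segments described below, 11 of 26 matrix genes and 2 of 14 cytoskeletal genes were higher, against 9.58% of all genes there. The fibroblast marker Thy1 was higher as well, at 0.370 and 0.574 CPM against 4.48 and 3.49 CPM, while Col1a1, Col1a2, Col3a1 and Dcn were too low to test; the part of other cells was not tested. Without Dgcr8 KO 1 or 2, 5 and 4 matrix genes and 3 and 3 cytoskeletal genes were called.

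Glycolytic genes were higher in 12 of 26 tested, against 10.4% of all genes, with a median of 0.71. With the GC offset 6 were higher, against 6.89% of all genes. By edgeR with all 4 libraries 0 of the 26 were lower, also at an unadjusted p under 0.05 and by DESeq2. Without either Drosha KO library some members were called lower. Pfkm, a phosphofructokinase on distal chromosome 15, stood at 58.2 and 56.5 CPM against 308 and 228 CPM (2.22 ± 0.19, adjusted p = 0.00581). Aldoc, an aldolase, stood at 9.77 and 14.1 CPM against 36.9 and 54.9 CPM (1.95 ± 0.29, adjusted p = 0.0139). Hk1, the hexokinase that starts glycolysis, stood at 44.1 and 46.5 CPM against 95.6 and 134 CPM (1.34 ± 0.20, adjusted p = 0.0143). Tpi1 stood at 239 and 269 CPM against 410 and 474 CPM. Without Dgcr8 KO 1 or 2, 1 and 2 glycolytic genes were called. Of 25 genes of cholesterol synthesis and uptake 7 were higher (median 0.36), against 10.4% of all genes. With the GC offset 6 were higher, against 6.89% of all genes. By edgeR and DESeq2 0 of the 25 were lower, with 1 at an unadjusted p under 0.05. Srebf2, the transcription factor that controls them, stood at 142 and 144 CPM against 443 and 416 CPM (1.59 ± 0.15, adjusted p = 0.00657), and lies on distal chromosome 15. Mvd, an enzyme of the mevalonate pathway, stood at 17.6 and 22.1 CPM against 42.8 and 45.7 CPM (1.16 ± 0.19, adjusted p = 0.0175; 0.0823 with the GC offset). Without a Dgcr8 KO library 1 gene of this list was called.

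Transcripts that host small nucleolar RNAs were lower in 7 of 15 tested and higher in 1, with a median of -0.65; 4 were lower with the GC offset, and without a Dgcr8 KO library edgeR called 0, with 5 and 6 lower at an unadjusted p under 0.05. Snhg5 stood at 114 and 123 CPM against 45.3 and 59.3 CPM (-1.18 ± 0.18, adjusted p = 0.015). Zfas1, another such host, fell by 0.85 ± 0.16 on the log2 scale (adjusted p = 0.0229). Snhg11 was the 1 that was higher, at 11.1 and 12.6 CPM against 35.8 and 25.8 CPM. Germline genes that DNA methylation silences were lower in 9 of 30 and higher in 1, with a median of -0.46; 6 were lower with the GC offset, and 2 and 1 without Dgcr8 KO 1 or 2. Xlr3b stood at 24.3 and 24.9 CPM against 3.56 and 5.92 CPM (-2.36 ± 0.30, adjusted p = 0.0101) and Hormad1, a meiotic chromosome axis gene, at 50.1 and 46.5 CPM against 22.6 and 11.8 CPM (-1.49 ± 0.32, adjusted p = 0.0305). Of the 9, 6 were Xlr genes of the X chromosome, near copies whose reads may be shared. The genes named Zfp, mostly Krueppel-type zinc fingers, were lower in 37 of 348 and higher in 17, with a median of -0.38. With the GC offset 10 were lower and 12 higher. For the lists of this paragraph, the share among all genes was 5.94% lower and 10.4% higher. With the GC offset it was 3.9% lower and 6.89% higher, and the Zfp genes lay below both of these.

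**Figure D4:**
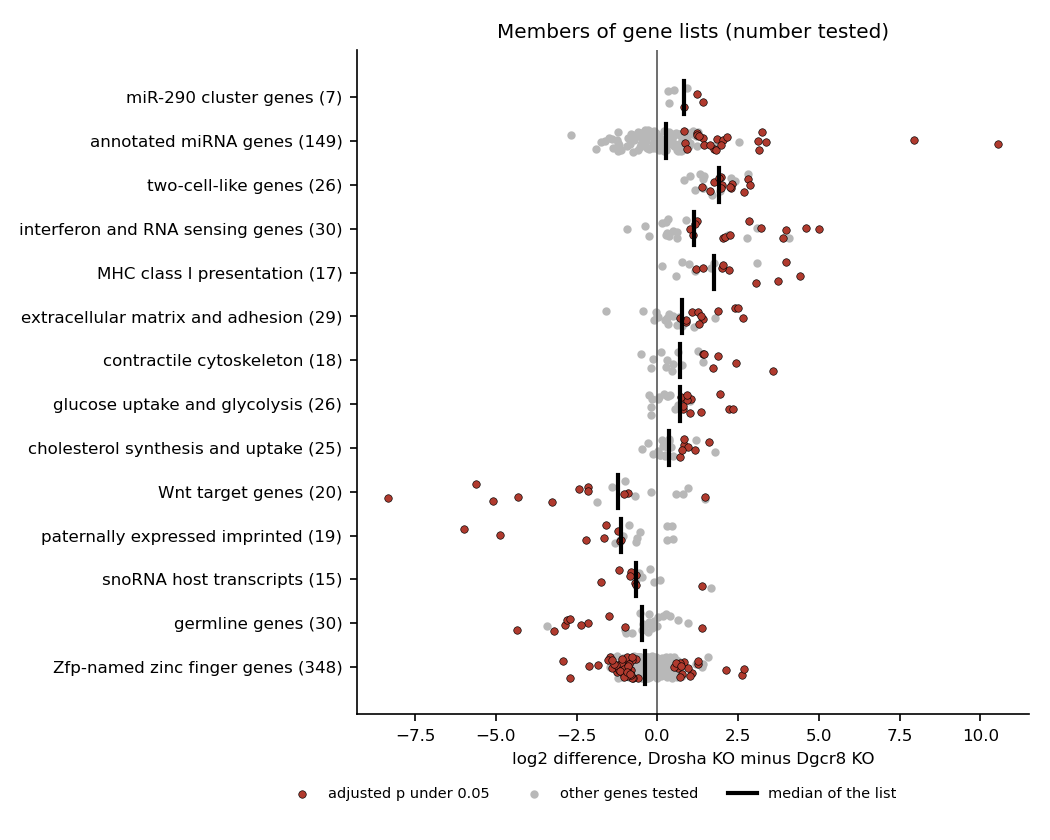
Log2 difference, Drosha KO minus Dgcr8 KO (horizontal axis), of each tested member of 14 gene lists, with the number tested in parentheses. Red points passed an adjusted p of 0.05, grey points did not, and black bars are list medians, which run from 1.92 for two-cell-like genes to -1.22 for Wnt targets.

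Some of the differences followed position on the chromosomes. In 247 windows of 10 Mb with 15 or more tested genes, medians of the log2 difference ran from -1.52 to 0.86. In 12 of them the median was 0.5 or more in size and 0.4 or more with the GC offset, in the same direction. All but 1 of these, a window of the X chromosome, lay in 4 segments, which were chosen after these medians were seen and are given as description. The other 14704 genes had a median of -0.01.

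On chromosome 15 from 70 Mb to the end, 153 of 414 genes were higher (37.0%, against 10.4% of all genes) and 4 were lower. The median was 0.71, with 0.66 in Drosha KO 1 and 0.73 in Drosha KO 2. The part before 70 Mb, which holds Drosha, had a median of 0.19. With the GC offset the segment stood at 0.51 and the part before it at 0.28, a smaller contrast. Hdac7, a histone deacetylase gene, stood at 8.71 and 10.7 CPM against 74.1 and 94.1 CPM (3.12 ± 0.22, adjusted p = 0.00471). Gsdmd, the pore-forming gasdermin of pyroptosis, stood at 4.33 and 3.83 CPM against 46.7 and 32.7 CPM (3.28 ± 0.26, adjusted p = 0.00553). On chromosome 17 from 60 Mb, 46 of 122 genes were higher (37.7%) and 0 lower by edgeR (2 at an unadjusted p under 0.05, 1 by DESeq2), with a median of 0.74, and with 0.75 and 0.68 in the Drosha KO libraries. Epas1, which encodes the hypoxia factor HIF-2 alpha, stood at 16.6 and 16.4 CPM against 126 and 81.8 CPM (2.65 ± 0.25, adjusted p = 0.00666). The class I heavy chain genes lie on chromosome 17 before 60 Mb, where the median was 0.21, and -0.01 with the GC offset.

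On chromosome 5 between 70 and 90 Mb, 33 of 61 genes were lower (54.1%, against 5.94% of all genes) and 0 higher by edgeR and DESeq2 (2 at an unadjusted p under 0.05). The median was -1.18, with -1.02 and -1.19 in the Drosha KO libraries. The rest of the chromosome had a median of -0.02. Kit, the receptor of stem cell factor, stood at 409 and 310 CPM against 106 and 130 CPM (-1.61 ± 0.20, adjusted p = 0.0101). Polr2b, a subunit of RNA polymerase II, stood at 282 and 282 CPM against 99.1 and 85.4 CPM (-1.61 ± 0.15, adjusted p = 0.00683). Srp72, of the signal recognition particle, stood at 250 and 263 CPM against 87.0 and 82.4 CPM (-1.60 ± 0.14, adjusted p = 0.0061). In all 3 both Drosha KO libraries were below both Dgcr8 KO libraries.

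The fourth segment, chromosome 12 from 90 Mb, separated the Drosha KO libraries from each other. Its median over 166 genes was -0.97 in Drosha KO 1 and -0.07 in Drosha KO 2, relative to the Dgcr8 KO mean, and -0.51 in the joint fit; without Drosha KO 1 it was -0.10. The imprinted, maternally expressed RNAs of the Dlk1-Meg3 domain lie here. Meg3 stood at 402 and 452 CPM in Dgcr8 KO, at 0.861 CPM in Drosha KO 1 and at 356 CPM in Drosha KO 2. Rian stood at 715 and 752 CPM, then at 1.32 and 441 CPM, and Mirg at 134 and 139 CPM, then at 0.344 and 141 CPM. These RNAs were almost missing from Drosha KO 1 alone, and none was called with all 4 libraries (adjusted p = 0.688 for Meg3). Without the genes of the 4 segments 1409 higher and 862 lower calls remained.

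**Figure D5:**
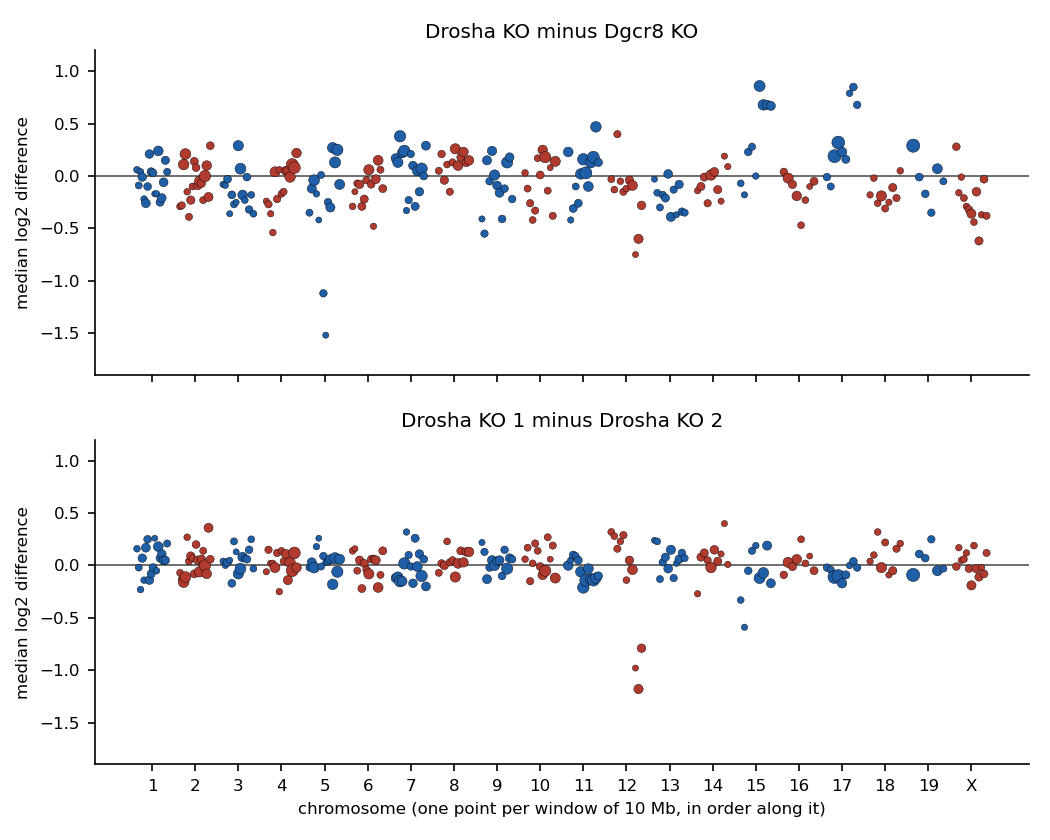
Median log2 difference (vertical axis) in windows of 10 Mb with 15 or more tested genes, in order along each chromosome (horizontal axis), with larger points for more genes. The upper panel (Drosha KO minus Dgcr8 KO) shows high windows on chromosomes 15 and 17 and low windows on chromosome 5; the lower panel (Drosha KO 1 minus Drosha KO 2) shows the low windows at the end of chromosome 12.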

How the data were processed

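Polyadenylated RNA of the 4 libraries was sequenced with a reverse-stranded TruSeq protocol from 1 ug of total RNA, per the labels. The submitters' processing notes name STAR 2.4.2a and the mouse builds mm10 and GRCm38; how reads were counted, with strand or without, and on which annotation release is not stated in the sources used here. The authors deposited raw read counts per gene, by Ensembl identifier. Of 47643 genes, 47224 had a symbol in GENCODE M21 (GRCm38), which gave coordinates, lengths and GC content. No sequence is shown for miR-292-3p and miR-23b-3p. Interval and fold bounds cover counting error only.

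Drosha KO and Dgcr8 KO were fitted alone (edgeR 4.0.16, R 4.3.3: filterByExpr, TMM, robust quasi-likelihood test with 2 residual degrees of freedom), with Benjamini-Hochberg adjustment over 15467 genes. On simulated counts 40% of 2-fold and 80.8% of 4-fold changes were recovered, with 19 false calls among 15184 genes. Only a small set of these genes had been changed. The false calls were therefore a share of the simulated calls above 0.05, the threshold on the adjusted p. Both genotypes were simulated with the same spread per gene, whereas in the data the Drosha KO libraries stood further apart. Genes named are the targets with Mir1306, the 12 largest called differences each way among genes with a mean of 5 CPM or more in 1 genotype, the 4 members with the lowest p in each list, genes at 0 counts in 1 genotype, and cell type markers. The rest of the miR-290 cluster, Mir29a, Mirlet7a-1, Eif2ak2, Ifih1, Mavs, Zbp1, H2-K1, Tcf7, Krt18, Lgals1 and the genes of the chromosome segments were chosen after their values were seen. The members and lists were chosen with earlier results of these data known. Alternatives were other scalings (DESeq2 size factors, library size), DESeq2 1.42.0, limma-voom 3.58.1, other filters, all 8 libraries, the replicate number as a block, a GC offset, a 2-fold limit and leaving out each library. The segments' removal was added after seeing the data.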

Additional observations from a re-analysis of the deposited data

How the results depend on the processing

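Genes called, 2533 in the comparison as reported, numbered between 2256 and 3114 with other scalings, DESeq2, limma-voom, a filter of 1 CPM or all 8 libraries in the fit, and 2271 without the 4 segments, an alternative chosen after seeing the data. They numbered 4600 with no filter, 4757 with the replicate number as a block, 1663 with the GC offset, 2808 with block and offset, 219 against a 2-fold limit, and 302 to 7808 with 1 library left out. Called list members, 318 of 1576, numbered 558 with no filter, 547 with the replicate block, 213 with the GC offset and 41 against the 2-fold limit, and 50 to 837 with 1 library left out. The chromosome 15 median, 0.57, was 0.52 with library sizes only and 0.47 with the GC offset, and 0.53 to 0.60 with 1 library left out. The GC correlation, 0.439, was 0.03 with the offset and 0.324 to 0.475 with 1 library left out. Mirg, at -0.94 ± 1.81 and not called (adjusted p = 0.745), stood at 0.05 without Drosha KO 1, and was called with no filter (-0.94, adjusted p = 3.64e-05) and without Drosha KO 2 (-8.6, adjusted p = 1.21e-48); none of the 210 called genes named changed direction under any alternative. Of these 210, 156 were called with the GC offset, 53 against the 2-fold limit, and 62 and 66 without Dgcr8 KO 1 or 2. The cause of these changes was not tested, and some of these fits also held fewer libraries or genes. Same-numbered libraries had deviations that correlated at 0.269, but 2 pairs do not establish a pairing. With 2 libraries a group, the self-test, which gave both genotypes the same spread, recovered 40% of 2-fold changes. A gene not called is thus not shown to be alike, and the lowest miRNA genes rest on few reads.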

Other observations

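Further gene groups are given by their counts, against 10.4% of all genes higher and 5.94% lower. Of 88 cytosolic ribosomal protein genes 3 were higher and 0 lower by edgeR (13 lower at an unadjusted p under 0.05, 4 by DESeq2), with a median of -0.13. Of 77 nuclear genes of the respiratory chain 6 were higher and 1 lower, and of 78 mitochondrial ribosomal protein genes 2 were higher and 1 lower. Of 30 genes of replication and mitosis 3 were lower and 0 higher by edgeR (0 at an unadjusted p under 0.05 and 0 by DESeq2), with a median of -0.31. Of 20 p53 targets 2 were higher and 4 lower, and 2 and 3 with the GC offset.

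Among 22 genes of Nodal and TGF-beta signalling 5 were higher and 2 lower, and 2 and 1 with the GC offset. Inhbb, a subunit of activin B, stood at 4.01 and 3.51 CPM in Dgcr8 KO and at 98.3 and 39.1 CPM in Drosha KO. Both Drosha KO libraries were far above both Dgcr8 KO libraries, and Inhbb was called with any 1 library left out. Of 17 trophectoderm genes 7 were higher and 5 lower, the lower ones including Cdx2, and 4 and 4 with the GC offset. Of 9 endoderm genes 2 were higher and 3 lower, and 0 and 2 with the GC offset. Of 20 genes of DNA methylation and demethylation 5 were higher and 0 lower by edgeR (2 lower at an unadjusted p under 0.05 and 2 by DESeq2), and 2 were higher with the GC offset. Of 11 neural genes 3 were higher and 0 lower by edgeR (1 at an unadjusted p under 0.05 and 1 by DESeq2), and 1 was higher with the GC offset. Of 6 Rhox genes 2 were higher and 1 lower, with and without the offset.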
